A study of Mus musculus with 55 samples.

Results

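The clustered protocadherins are the genes of the alpha, beta and gamma protocadherin clusters, which lie next to each other on mouse chromosome 18. Their members were taken as the rows of the count table whose Ensembl identifiers map to symbols of these clusters in GENCODE release 21, which gave 58 of 43432 rows. The alpha cluster held 14 rows (2 of them named Pcdha11), the beta cluster 22 and the gamma cluster 22. The gamma cluster member Pcdhgc4 was singled out because its level fell in Q175 against wild-type mice, so its values in that comparison, and in every comparison that uses those libraries for the same difference, are a description with no test.

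Messenger RNA had been sequenced from the white fat around the gonad of C57BL/6 mice aged 6 months, in 55 libraries. The animals were wild type (WT) or carried 1 knock-in Htt allele (heterozygous) named by its CAG repeat number, Q20, Q80, Q92, Q111, Q140 or Q175, and every knock-in genotype therefore kept 1 wild-type Htt allele. Genotype and sex together gave 14 groups of 4 libraries (3 for WT females), and all shared strain, age and tissue. WT and Q20 mice were housed together and each of the other genotypes with its own kind, so housing and genotype cannot be told apart for Q80 to Q175. Total counts lay between 35094000 and 51364000 with a median of 42009000.

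Protocadherins are cell surface proteins of the cadherin superfamily with which cells recognise their own kind. In the alpha and gamma clusters each member has its own large first exon, which encodes the whole outer part of the protein, the membrane span and the start of the tail, and which is spliced to a set of short constant exons that all members of the cluster share. Beta members have no constant exons and are made from a first exon alone. Neurons switch on a few of these first exons at random, each from a promoter of its own, through the DNA-binding protein CTCF and cohesin, and the resulting mixture lets the branches of a neuron tell themselves from those of others. The last members of the alpha and gamma clusters, the C types (Pcdhac1, Pcdhac2, Pcdhgc3, Pcdhgc4, Pcdhgc5), are chosen by other rules. Pcdhgc3 is widely expressed outside the nervous system, and in mice Pcdhgc4 is the gamma member that interneurons need for survival. What these genes do in fat is little known.

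Adipocyte markers were found in every library, but some male libraries also held markers of epididymis and testis. The 9 adipocyte markers were all detected and summed to between 17000 and 38600 CPM (reads scaled to a common library size) in females and between 3960 and 38100 CPM in males, with the lowest value in Q92 male 1. Epididymis and testis markers summed to at least 100 CPM in 14 of the 28 male libraries and reached 31500 CPM in Q140 male 1. Their sum exceeded that of the adipocyte markers in Q140 male 1 (6440 CPM of adipocyte markers), Q92 male 1 (19000 against 3960 CPM) and Q80 male 1 (20700 against 14100 CPM). The sex genes of 2 Q140 libraries contradict their labels: the library labelled Q140 female 1 had 0.515 CPM of Xist and 76.6 CPM of Ddx3y, and the library labelled Q140 male 4 had 711.9 CPM of Xist and 0.0470 CPM of Ddx3y. Their labels were kept, and the sex results that change without them are given below. The numbers in the library names fall into 2 blocks, with WT and Q175 in one and nearly all other libraries in the other, so that any difference of Q20 to Q175 or to WT is also one between blocks. Htt, the targeted gene, was measured at 66.2 ± 9.08 CPM (SD, n = 7) in WT, 58.5 for Q20 and 57.4 for Q175.

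Gamma members carried most of the signal in this tissue. Summed over the cluster, gamma reached 218.7 ± 40.1 CPM (SD, n = 55), beta 36.5 ± 11.5 CPM and alpha 2.15 ± 2.13 CPM. All 22 gamma rows were above 0 in all 55 libraries. Of the 22 beta rows 20 were above 0 in every library, while Pcdhb1 was at 0 in 41 libraries and Pcdhb2 in 8. Of the 14 alpha rows only Pcdhac2 was above 0 in every library. The filter on low counts kept 54 of the 58 rows, leaving out 4 alpha rows (Pcdha6, Pcdha7, Pcdhac1 and the Pcdha11 row ENSMUSG00000102206), so every statement about tests below refers to 54 rows.

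Per length, as FPKM, which scales fragments by transcript length and depth, Pcdhgc3 and Pcdhgc4 stood above all other members. Pcdhgc3 had a mean of 22.2 FPKM and Pcdhgc4 of 17.01 FPKM over the 55 libraries. The next members were Pcdhga5 at 2.03, Pcdhgb2 at 1.69, Pcdhgb6 at 1.65 and Pcdhga6 at 1.38 FPKM. The highest beta members were Pcdhb17 at 1.23, Pcdhb22 at 1.08 and Pcdhb9 at 1.05 FPKM, and Pcdhga7 closed the first 10 at 1.03 FPKM. The third gamma C type, Pcdhgc5, which is known mainly from brain, stood at 0.360 FPKM. The alpha C type Pcdhac2 stood at 0.112 FPKM and was the highest alpha row, and Pcdhac1 was found in 6 libraries at a mean of 0.00199 FPKM. The median member had 0.773 FPKM in gamma, 0.254 FPKM in beta and 0.0197 FPKM in alpha.

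Pcdhgc4 was low in Q175 mice of both sexes. The 4 Q175 female libraries had 2.83, 2.06, 9.65 and 5.46 CPM, and the 4 Q175 male libraries had 14.9, 20.0, 4.73 and 2.59 CPM. The 7 WT libraries ranged from 18.7 to 106.8 CPM with a median of 73.1 CPM. The 8 Q20 libraries ranged from 14.9 to 53.9 CPM with a median of 35.5 CPM. Of the 8 Q175 libraries 7 lay below every WT library, 7 below every Q20 library and 6 below all 47 libraries of the other genotypes. On the log2 scale the difference to WT was -3.03 ± 0.41 (SE) and the difference to Q20 was -2.30 ± 0.40 (SE), and since the gene was chosen for this fall neither carries a p-value.

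The order of the genotype means was Q175, Q20, Q80, Q92, Q140, Q111 and WT, at 7.77 ± 6.57, 35.8 ± 11.98, 39.5 ± 10.3, 45.1 ± 20.5, 45.1 ± 26.0, 50.1 ± 15.8 and 61.4 ± 31.0 CPM (SD, n = 8 each, n = 7 for WT). Only the step from Q175 to Q20 exceeded the SD of both neighbours; every other pair of neighbours differed by less than 1 SD. The comparisons that used neither Q175 nor WT gave no call for Pcdhgc4. Against Q20 the log2 difference was 0.12 ± 0.38 (SE) in Q80 (edgeR adjusted p = 0.997), and 0.48 ± 0.38 in Q111 (edgeR adjusted p = 0.810). The slope over the repeat number from Q20 to Q140 was 0.34 ± 0.30 log2 units per 100 repeats (edgeR adjusted p = 0.872). The difference between the sexes was -0.08 ± 0.20 (edgeR adjusted p = 0.813), and the change from WT to Q175 differed between males and females by 0.62 ± 0.79 log2 units (edgeR adjusted p = 1).

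**Figure D1:**
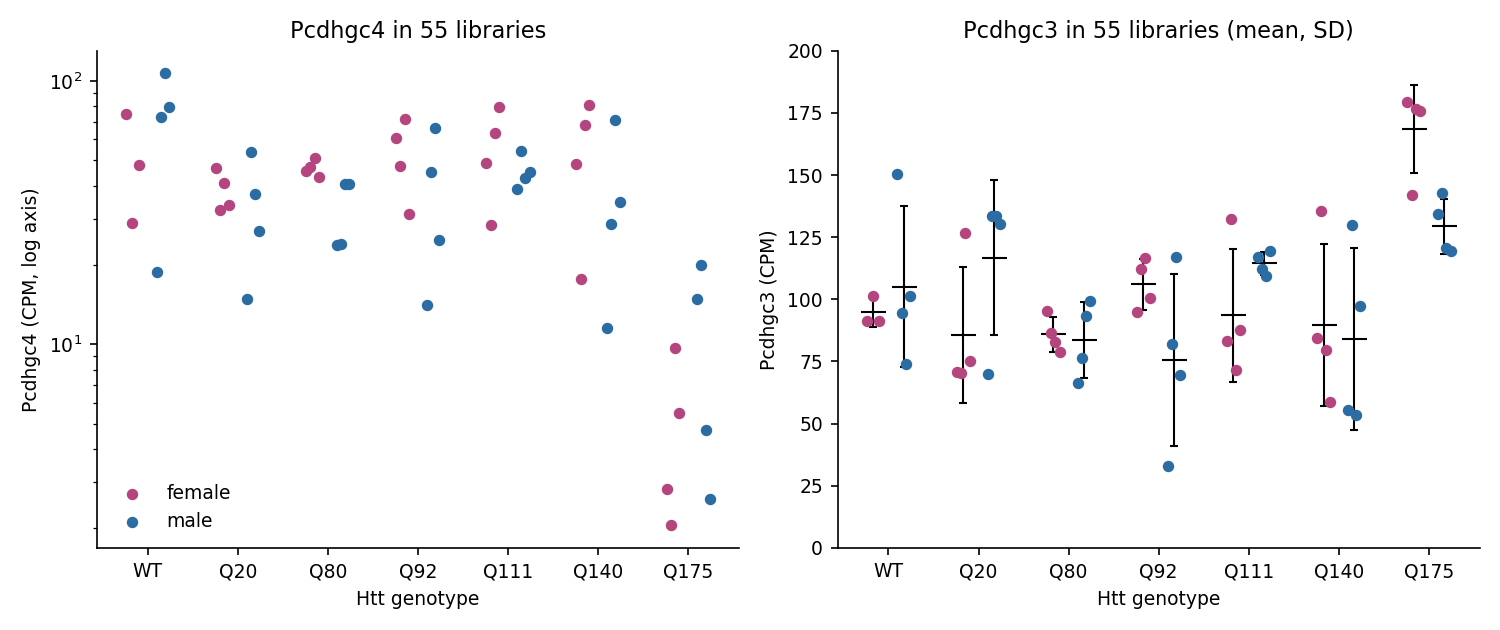
CPM of Pcdhgc4 and of its neighbour Pcdhgc3 in each of the 55 libraries by genotype, females and males apart, with the mean and SD of each group of 3 or 4 libraries for Pcdhgc3. Pcdhgc4, on a log axis, lies between 2.06 and 20.0 CPM in Q175 and between 11.6 and 106.8 CPM in the other 47 libraries, while Pcdhgc3 lies between 119.6 and 179.5 CPM in Q175.

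The neighbours of Pcdhgc4 did not fall with it. Pcdhgc3 measured 179.5, 142.1, 176.5 and 175.7 CPM in the Q175 females and 134.5, 142.6, 120.5 and 119.6 CPM in the Q175 males. It ranged from 73.9 to 150.5 CPM in WT and from 69.99 to 133.6 CPM in Q20, so that 3 of the 8 Q175 libraries lay above every WT library and 6 above every Q20 library. Against Q20 the log2 difference of Pcdhgc3 was 0.56 ± 0.19 (SE, edgeR adjusted p = 0.0395). The call was lost, at an edgeR adjusted p of 0.0595 to 0.0844, when any 1 of 8 libraries was left out (Q175 females 1, 3 and 4, Q175 male 2, Q20 females 1, 2 and 4, Q20 male 1). Pcdhgc5 measured 1.63 ± 0.594 CPM in WT (SD, n = 7), 1.51 ± 0.410 in Q20 and 2.36 ± 0.931 in Q175 (SD, n = 8 each). Its log2 difference from Q20 to Q175 was 0.57 ± 0.30 (SE, edgeR adjusted p = 0.207).

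As a share of all gamma reads, Pcdhgc4 took 27.8 ± 14.5% in WT (SD, n = 7), 16.7 ± 4.72% in Q20 (SD, n = 8) and 3.05 ± 2.62% in Q175 (SD, n = 8). The Q175 shares, 0.798% to 7.91%, did not overlap those of Q20. The gamma sum itself was 226 ± 17.4 in WT, 214 ± 41.9 in Q20 and 257 ± 30.5 in Q175, in CPM. Without Pcdhgc4 the sum was 164.5 ± 43.8 for WT, 178 ± 36.1 for Q20 and 249.5 ± 31.2 CPM for Q175, and 4 of 8 Q175 libraries lay above every WT library.

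Among the WT libraries Pcdhgc4 was highest where the other gamma members were lowest. WT male 3 had 106.8 CPM of Pcdhgc4 and 111.2 CPM in the other 21 gamma rows. WT male 1 had 18.7 CPM of Pcdhgc4 and 244.8 CPM in the others. The other 5 WT libraries lay between them on both measures, with 28.9 to 79.5 CPM of Pcdhgc4 and 142.2 to 196.7 CPM in the rest. These are 7 libraries described after their values were seen, and the relation was not tested. The Spearman rank correlation of Pcdhgc4 with the sum of the other gamma rows was -0.964 in WT. It was 0.003 over the 40 libraries of Q20 to Q140 and 0.048 over the 8 of Q175.

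Which reads the Pcdhgc4 row holds bears on all of these values. GENCODE lists 3 transcripts for it. Pcdhgc4-201 has 5024 nt, made of the large first exon and the constant exons, of which 2119 nt (42.2%) are shared with the other gamma members. Pcdhgc4-203 is a protein-coding transcript of 2272 nt, of which 2119 nt (93.3%) are the shared constant exons and 153 nt are its own. Pcdhgc4-202 is a retained intron of 3100 nt. For comparison, Pcdhgc3-201 has 4687 nt, of which 45.2% are shared. A read in the shared stretch matches every gamma member, and the deposited estimated counts had divided such reads by a program that is not given in the sources used here.

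The ratio of the deposited count to the deposited FPKM gives the transcript length that the authors' program used for a row in each library. For the 36 members with 1 transcript in GENCODE this implied length differed from the annotated length by less than 0.5% in 36 of 36, with a largest difference of 0.111%. For Pcdhgc4 it lay between 2279 and 2482 nt in the 47 libraries outside Q175, with a median of 2313 nt, which is close to the short transcript. In the Q175 females it was 4530, 3346, 2831 and 3892 nt, and in the Q175 males 2535, 2465, 2938 and 4019 nt. Thus 7 of the 8 Q175 libraries lay above all 47 others, and the eighth, Q175 male 2, was also the Q175 library with the most Pcdhgc4. The implied length of Pcdhgc3, which also has several transcripts, stayed between 4457 and 4684 nt in all 55 libraries.

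**Figure D2:**
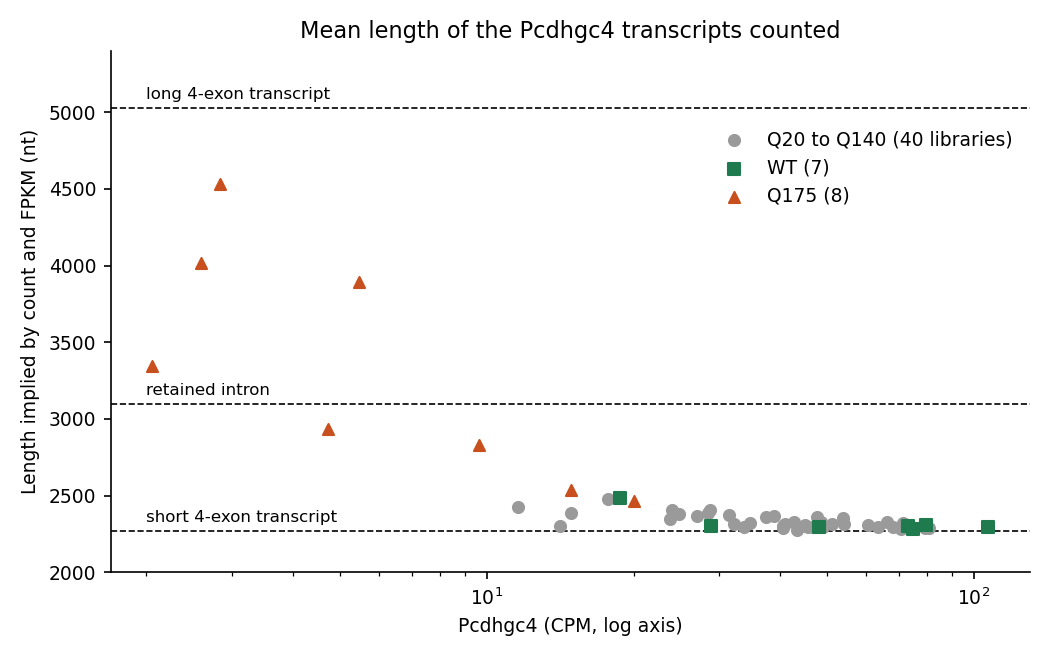
Transcript length implied by the deposited count and FPKM of Pcdhgc4 in each library against its CPM on a log axis, with lines at the lengths of its short (2272 nt), retained-intron (3100 nt) and long (5024 nt) GENCODE transcripts. The 47 libraries outside Q175 lie between 2279 and 2482 nt and the 8 Q175 libraries between 2465 and 4530 nt.

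Taking the retained intron as 0, the implied length divides the Pcdhgc4 reads between the short and the long transcript. This division was chosen after the values had been seen. Reads assigned to the short transcript were 59.8 ± 31.0 CPM for WT (SD, n = 7), 34.2 ± 11.6 for Q20 and 5.14 ± 6.29 for Q175 (SD, n = 8 each). Reads assigned to the long transcript were 1.69 ± 0.849 for WT, 1.66 ± 0.932 for Q20 and 2.64 ± 0.921 CPM for Q175. Of the short and the long transcript only the long one holds the large first exon. Whether the retained intron overlaps that exon was not examined. The long-transcript values in Q175, 1.21 to 4.15 CPM, overlapped the 0.247 to 3.37 CPM of the other 47 libraries and had no lower mean. The short transcript took 95.4% of the row's reads on average outside Q175 and 48.0 ± 28.7% in Q175. If the retained intron took as many reads as the implied lengths allow, the short-transcript mean would be 58.0 for WT, 32.4 for Q20 and 3.31 CPM for Q175. The fall in Q175 was thus in reads assigned to the transcript of which 153 nt are its own, and how those reads were divided among the gamma members was not tested.

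Of the other gamma members 10 passed as higher in Q175 than in WT and 3 as higher than in Q20. Against WT, the comparison from which Pcdhgc4 was chosen, 12 of the 54 rows passed an adjusted p of 0.05, where 10.4% of all 21113 genes did. Of these 11 were higher (3.34% of all genes) and 1, Pcdhgc4, was lower (7.1% of all genes). The higher ones were Pcdhac2 and 10 gamma rows, and no beta row passed. Pcdhga11 had the largest gamma difference at 1.13 ± 0.25 log2 units (SE), followed by Pcdhgb8 at 0.96, Pcdhgb4 at 0.93, Pcdhga2 at 0.83, Pcdhgb7, Pcdhga3 and Pcdhga6 at 0.79 each, Pcdhgb2 at 0.67, Pcdhga7 at 0.66 and Pcdhgb6 at 0.64. The log2 difference was above 0 in 21 of 22 gamma rows, with a median of 0.64, against 0.32 over the 20 beta rows above 0 in every library and 0.01 over all genes. These are a description, and nothing is read from the counts. Without WT male 1 the count was 19, and without WT female 1 it was 5.

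The gamma A members summed to 38.1 ± 14.4 CPM for WT (SD, n = 7), 45.4 ± 4.50 for Q20 and 58.8 ± 4.59 for Q175 (SD, n = 8 each). All 8 Q175 libraries, at 53.4 to 65.1 CPM, lay above all 8 Q20 libraries at 39.2 to 52.6 CPM, and 5 of 8 above every WT library. The gamma B members summed to 24.1 ± 9.77 for WT, 30.2 ± 2.94 for Q20 and 39.5 ± 3.77 CPM for Q175, again with all 8 Q175 libraries above all Q20 libraries.

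Against Q20, 5 of the 54 rows passed as higher, where 4.54% of all genes did. Pcdhgc4 was the row that was lower, where 9.7% of all genes were (14.2% in either direction), and as the gene chosen for its fall it is a description here. This comparison shares its Q175 libraries with the comparison to WT. Pcdhgb4, a gamma B member, measured 4.50 to 6.27 CPM in Q175 with a median of 5.29 CPM and 2.28 to 4.44 CPM in Q20 with a median of 3.60 CPM. The groups did not overlap, and the log2 difference was 0.60 ± 0.19 (SE, edgeR adjusted p = 0.0217, and 0.0509 without Q20 female 2). Pcdhga11, a gamma A member, measured 3.07 to 4.90 CPM in Q175 with a median of 4.27 CPM and 1.76 to 3.24 CPM in Q20 with a median of 2.51 CPM. The groups overlapped slightly, and the log2 difference was 0.74 ± 0.24 (SE, edgeR adjusted p = 0.031). It was lost, at 0.0546 to 0.0699, without Q175 male 4, Q20 female 2, Q20 female 4 or Q20 male 2.

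The other 2 rows besides Pcdhgc3 came from beta and alpha. Pcdhb16 measured 1.87 to 3.45 CPM in Q175 and 1.02 to 2.69 CPM in Q20, with a log2 difference of 0.51 ± 0.18 (SE, edgeR adjusted p = 0.0432), and was lost when any 1 of 10 of the 16 libraries was left out, at up to 0.111. The Pcdha11 row ENSMUSG00000007440 measured 0.0401 to 0.340 CPM in Q175 and 0 to 0.236 CPM in Q20, where 5 of 8 libraries were at 0 (edgeR adjusted p = 0.0438), and was lost when any 1 of 11 of the 16 was left out, at up to 0.0791. The median log2 difference was 0.34 over the 22 gamma rows and 0.24 over the 20 beta rows above 0 in every library, against 0.01 over all genes.

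**Figure D3:**
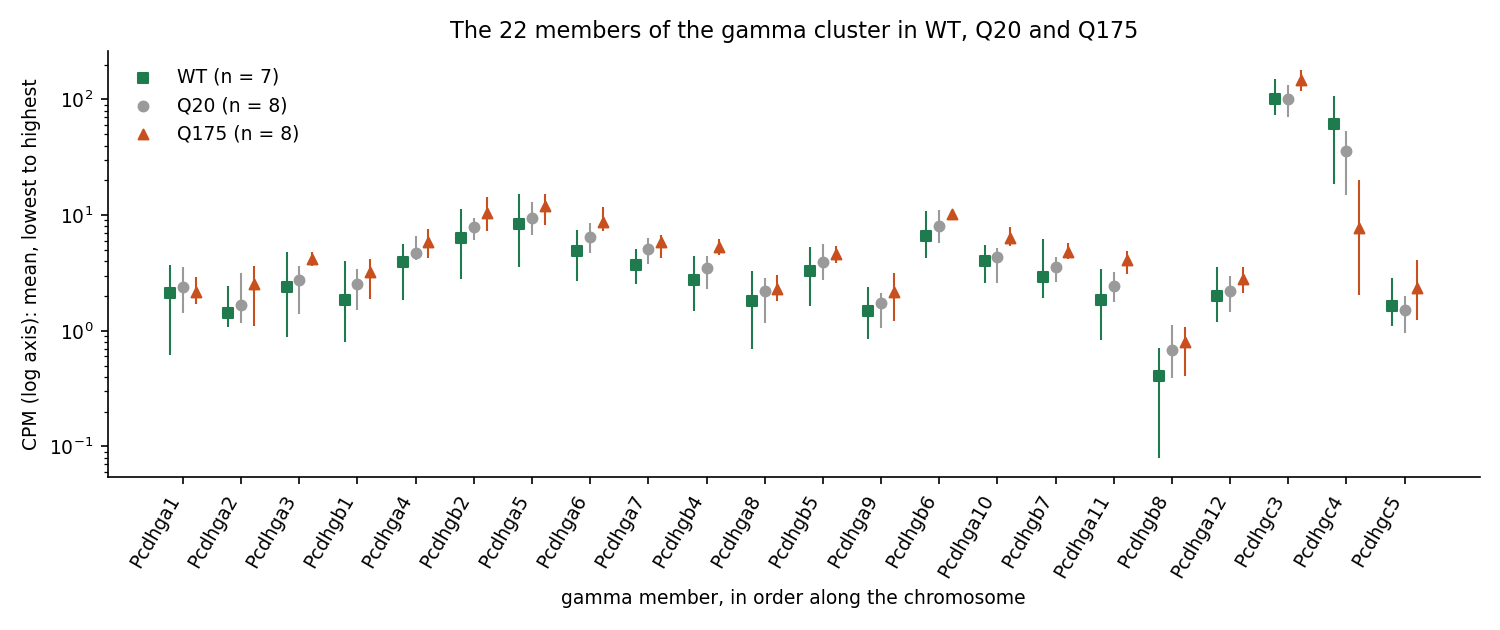
Mean and lowest to highest CPM (log axis) of the 22 gamma members in WT, Q20 and Q175, in order along the chromosome. The Q175 mean of Pcdhgc4 is 7.77 CPM, below the 61.4 CPM of WT, while that of its neighbour Pcdhgc3 is 149 CPM, above the 101 CPM of WT.

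Other measures also differed between Q175 and WT. The slope over log2 transcript length of a library's log2 expression, taken relative to the mean of all libraries, was 0.137 ± 0.036 in Q175 (SD, n = 8), 0.042 ± 0.069 in WT (SD, n = 7) and -0.019 ± 0.035 in Q20 (SD, n = 8), with the lowest Q175 value at 0.086. Gamma transcripts are long, as are some beta transcripts (8695 nt for Pcdhb14). With the trend over length removed 0 of the 54 rows passed as higher in Q175 than in Q20. Of all genes 204 then passed as higher in that comparison, against 958 before. Against WT 4 of the 54 rows still passed as higher with the trend removed, Pcdhga11, Pcdhgb4, Pcdhgb7 and Pcdhac2. The median log2 difference of the 54 rows was then 0.353 against WT and 0.16 against Q20. The sum of epididymis and testis markers was 509 to 3180 CPM in males and 0.121 to 4.98 CPM in females of Q175. It was at most 26.0 CPM in any WT library and 7270 CPM in Q20 male 1. Of 11 such markers 2, Crisp1 and Gpx5, passed as higher in Q175 than in WT, where 3.34% of all genes did. Against Q20, where 4.54% of all genes were higher, 1 of 11 passed. Progenitor markers passed in 6 of 8 genes, all higher than in WT, and summed to 2240 to 2860 CPM in Q175 and 1140 to 2670 CPM in WT. Against Q20 3 of 8 passed, and the Q20 sums, 1880 to 3030 CPM, spanned those of Q175. Macrophage markers passed in 5 of 6, all higher than in WT, and summed to 481 to 700 CPM in Q175 against 202 to 577 CPM in WT. Against Q20 1 of 6 passed, and the Q20 sums were 328 to 577 CPM. Schwann cell and nerve markers passed in 1 of 14, with sums of 68.9 to 159 CPM in Q175 and 58.0 to 147 CPM in WT, and none of these markers was at 0 in every library of either genotype. The part of these in the differences was not tested. In whole tissue, fewer cells of a type and less RNA per cell cannot be told apart.

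Pcdhac2, the last alpha member, measured 0.581 to 1.79 CPM in Q175, 0.357 to 1.13 CPM in Q20 and 0.129 to 0.435 CPM in WT. All 8 Q175 libraries lay above all 7 WT libraries, and the log2 difference was 1.91 ± 0.47 (SE). From WT to Q20 the log2 difference was 1.22 ± 0.46 (SE, edgeR adjusted p = 0.280), and from Q20 to Q175 it was 0.69 (edgeR adjusted p = 0.307). The count behind these values was low, with a mean of 0.112 FPKM over all libraries.

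No clustered protocadherin passed in Q80, Q111 or Q140 against Q20, where 0% of all genes passed. At an unadjusted p under 0.05 there were 4 rows in Q80, 2 in Q111 and 2 in Q140. The share of all genes at an unadjusted p under 0.05 was not counted, here or below. Nothing is therefore read from these unadjusted counts. DESeq2 passed no row in Q80, and in Q111 and in Q140 it passed 1, the Pcdha11 row ENSMUSG00000007440, which it also passed for the slope over the repeat number. By DESeq2 86 genes were higher and 72 lower in Q111, 467 and 32 in Q140, and 267 and 31 over the slope. In edgeR the slope had no row, with 3 at an unadjusted p under 0.05, and 0.00474% of all genes passed. Q20 against WT had no row, with 6 at an unadjusted p under 0.05, and 0.753% of all genes passed; DESeq2 passed none, and limma voom with quality weights passed 6 gamma A and B rows, all higher in Q20, among 1110 genes higher and 914 lower of 21113. The slopes of the sexes differed in no row by edgeR, with 1 at an unadjusted p under 0.05, where 0% of all genes passed. DESeq2 also passed no row there, and 71 genes higher and 170 lower. The Q175 to WT difference depended on sex in no row by edgeR, with 1 at an unadjusted p under 0.05, where 0.0284% of all genes passed. DESeq2 also passed no row there, and 33 genes higher and 66 lower.

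In Q92 against Q20 the alpha member Pcdha2 passed, as 1 of 54 rows where 6.11% of all genes passed, 5.91% higher and 0.208% lower (log2 difference 5.51 ± 1.47, SE, edgeR adjusted p = 0.0163). The highest Q92 values were those of Q92 male 1 with 9.02 CPM (426 counts) and Q92 male 4 with 3.84 CPM (191 counts). The median of the 8 Q92 libraries was 0.268 CPM, and the 4 Q20 male libraries were at 0, so the fitted size depends on the offset that the fit adds to low counts. Without Q92 male 1, or without Q92 female 3 (0.532 CPM), the row did not pass, and without Q92 male 4 it still passed. Q92 male 1 also held 19000 CPM and Q92 male 4 held 9450 CPM of epididymis and testis markers. Q80 male 1, at 20700 CPM of these markers, had 1.10 CPM of Pcdha2, while Q111 female 4 had 1.73 CPM with 0.375 CPM of the markers. Q140 male 1, with the most of these markers, 31500 CPM, had 0.146 CPM of Pcdha2, and Q20 male 1, with 7270 CPM, had 0. With additive terms for sex and genotype and the 14 libraries with at least 100 CPM of these markers left out, no row passed in Q92, and which of these changes lost the call was not tested.

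Beta members were lower in males. Of the 54 rows 30 passed between the sexes over the 7 genotypes, 27 lower and 3 higher in males (29 and 3 without the 2 Q140 libraries), where 46.3% of all genes passed, 18.3% lower and 27.9% higher. The count over both directions is near the background, and the direction was not. In the beta cluster 17 of 22 rows were lower in males and 0 higher, and 21 of 22 had a log2 difference below 0. Over the 20 beta rows above 0 in every library the median log2 difference was -0.80, against 0.07 over all genes. The beta rows that did not pass were Pcdhb1, Pcdhb13, Pcdhb18, Pcdhb21 and Pcdhb22.

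Summed over the cluster, beta measured 45.4 ± 8.70 CPM in females (SD, n = 27) and 27.9 ± 5.76 CPM in males (SD, n = 28). The female libraries ranged from 33.3 to 78.5 CPM with a median of 44.1 CPM, the male libraries from 16.97 to 40.4 CPM with a median of 27.4 CPM, and 24 of 28 male libraries lay below every female library. Without the 2 Q140 libraries the highest male sum was 38.4 CPM and the lowest female sum was still 33.3 CPM. In 6 of the 7 genotypes every male lay below every female, and the overlap in Q140 stayed when the 2 libraries with contradicting sex genes were left out. In WT the females measured 46.2 ± 4.26 CPM (SD, n = 3) and the males 26.7 ± 4.45 CPM (SD, n = 4). In Q20 the values were 44.0 ± 5.70 CPM and 28.02 ± 2.30 CPM, and in Q175 48.9 ± 1.803 CPM and 34.6 ± 2.94 CPM (SD, n = 4 each). The library labelled Q140 male 4, whose sex genes are those of a female, had the highest beta sum among the male labels at 40.4 CPM. The library labelled Q140 female 1, whose sex genes are those of a male, had 33.8 CPM.

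**Figure D4:**
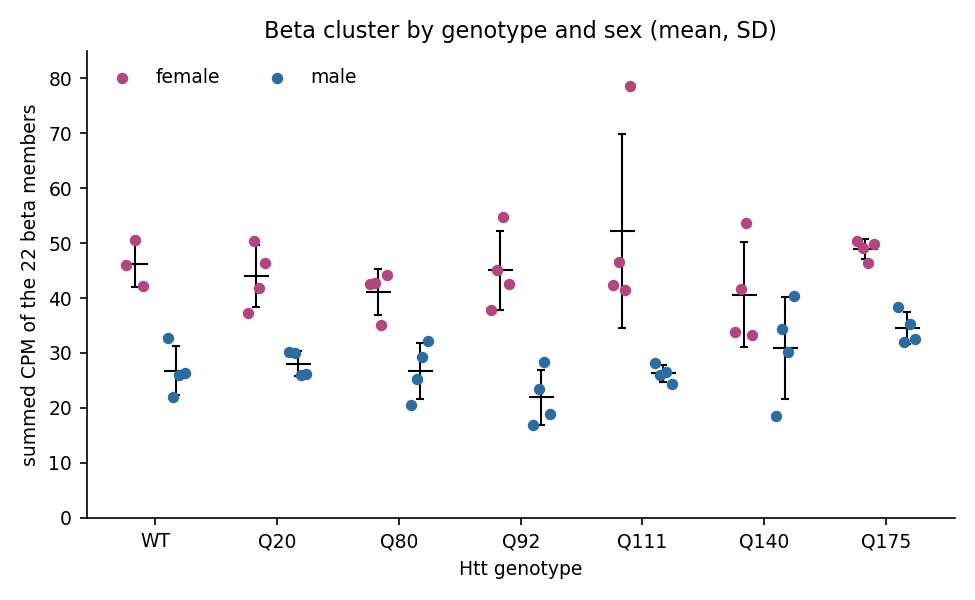
Sum of the 22 beta members in CPM in each library by genotype and sex, with the mean and SD of each group of 3 or 4 libraries. Males range from 16.97 to 40.4 CPM and females from 33.3 to 78.5 CPM.

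Pcdhb9 had the largest difference among beta rows above 0 in every library. Its female libraries ranged from 1.72 to 21.8 CPM with a median of 3.90 CPM and its male libraries from 0.618 to 2.94 CPM with a median of 1.20 CPM. Here 23 of 28 males lay below every female, the highest male was 2.39 CPM without the 2 Q140 libraries, and the log2 difference was -1.91 ± 0.20 (SE, edgeR adjusted p = 3.38e-10). Pcdhb7 ranged from 1.30 to 5.95 CPM in females with a median of 2.56 CPM and from 0.527 to 2.26 CPM in males with a median of 1.06 CPM. Its lowest female label and its highest male label were the 2 libraries with contradicting sex genes, and without them every male lay below every female in 7 of 7 genotypes. The log2 difference of Pcdhb7 was -1.27 ± 0.12 (SE, edgeR adjusted p = 1.2e-10).

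Pcdhb17, the beta member with the highest level per length, ranged from 5.57 to 8.72 CPM in females and from 2.29 to 7.47 CPM in males, with medians of 6.86 and 4.88 CPM. Its log2 difference was smaller, -0.56 ± 0.08 (SE, edgeR adjusted p = 2.87e-07), and 22 of 28 males lay below every female. Pcdhb14 ranged from 3.21 to 7.73 CPM in females and from 1.73 to 5.55 CPM in males (from 3.35 CPM and up to 4.16 CPM without the 2 Q140 libraries), with a log2 difference of -0.80 ± 0.09 (SE, edgeR adjusted p = 8.84e-09). Pcdhb19 ranged from 1.25 to 2.54 CPM in females and from 0.288 to 1.65 CPM in males (1.501 CPM without these libraries), and 23 of 28 males lay below every female (log2 difference -0.87 ± 0.12, SE, edgeR adjusted p = 4.54e-07). Pcdhb11, Pcdhb15, Pcdhb16, Pcdhb3 and Pcdhb20 completed the 10 rows with the smallest p, at log2 differences of -1.15, -0.84, -0.66, -1.24 and -0.65. By contrast Pcdhb22, the second beta member by level, had medians of 5.81 CPM in females and 5.93 CPM in males and a log2 difference of -0.10 ± 0.10 (SE, edgeR adjusted p = 0.425).

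The gamma cluster differed less between the sexes. Of 22 gamma rows 6 were lower in males and 3 higher, where 18.3% and 27.9% of all genes were. The median log2 difference was -0.11. Without the 2 Q140 libraries 8 were lower. When the 14 male libraries high in epididymis and testis markers were left out and sex and genotype were fitted as additive terms, 2 were lower, and which of these changes moved the count was not tested. Pcdhga5, the highest gamma A member, ranged from 5.66 to 16.1 CPM in females with a median of 11.8 CPM and from 1.53 to 14.1 CPM in males with a median of 7.35 CPM, so the sexes overlapped, as they did without the 2 Q140 libraries at 7.80 to 16.1 and 1.53 to 12.3 CPM (log2 difference -0.62 ± 0.13, SE, edgeR adjusted p = 0.000188). Pcdhgb1 had a log2 difference of -0.66 (edgeR adjusted p = 0.000275), and Pcdhga4, Pcdhga8, Pcdhgb2 and Pcdhga6 were lower by smaller amounts, with log2 differences of -0.45, -0.36, -0.35 and -0.31. The 3 that were higher in males were gamma A members. Pcdhga2 had medians of 1.18 CPM in females and 1.81 CPM in males and a log2 difference of 0.56 ± 0.14 (SE, edgeR adjusted p = 0.000937). Pcdhga12 and Pcdhga7 had log2 differences of 0.38 and 0.26 (edgeR adjusted p = 0.0092 and 0.0261).

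None of the 3 gamma C types passed between the sexes. Pcdhgc3 had medians of 91.4 CPM in females and 105 CPM in males and a log2 difference of -0.02 ± 0.10 (SE, edgeR adjusted p = 0.956), which bounds the difference more tightly than the -0.08 ± 0.20 of Pcdhgc4. Pcdhgc5 had a log2 difference of -0.13 ± 0.16 (SE, edgeR adjusted p = 0.545).

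In the alpha cluster 4 of 10 rows were lower in males, where 18.3% of all genes were. They were Pcdha9, Pcdha8, Pcdha5 and the Pcdha11 row ENSMUSG00000007440. Their levels were low in both sexes. Pcdha9 and Pcdha8 were at 0 in every library of 2 male groups each and Pcdha11 in 1, so their fitted differences depend on the offset and are not given. Pcdha5 was above 0 in at least 1 library of every group and had a log2 difference of -1.74 ± 0.59 (SE, edgeR adjusted p = 0.0147). Pcdhac2 had medians of 0.675 CPM in females and 0.584 CPM in males (log2 difference -0.29 ± 0.23, SE, edgeR adjusted p = 0.321).

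**Figure D5:**
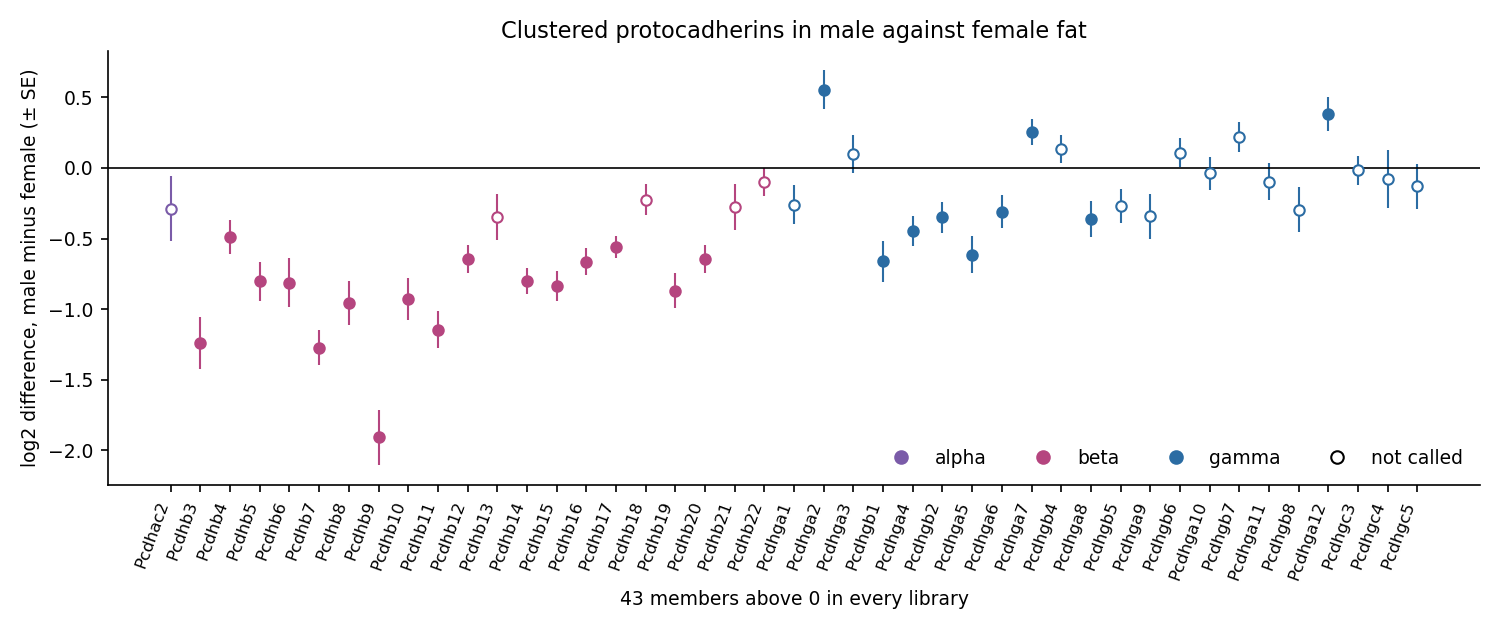
Log2 difference, male minus female, with its SE, of the 43 members above 0 in every library, by cluster; open circles did not pass. The beta members lie between -1.91 and -0.10 and the gamma members between -0.66 and 0.56.

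Markers of other tissues and cell types were also compared between the sexes. Of all genes 27.9% were higher in males and 18.3% lower. Schwann cell and nerve markers passed in 13 of 14 genes, 10 lower in males, among them Cdh19 at a log2 difference of -1.36, and 3 higher, Erbb3, Ncam1 and Egr2. Their sum ranged from 74.6 to 165 CPM in females and from 52.0 to 371 CPM in males, with medians of 104 and 71.1 CPM. Neuron markers passed in 5 of 9, 4 higher in males and Snap25 lower, with medians of the sum of 11 CPM in females and 14.8 CPM in males. Mural cell markers were lower in males in 2 of 7, with medians of 1350 and 902 CPM, and mesothelium markers were lower in 4 and higher in 3 of 10, with medians of 253 and 242 CPM. None of the markers of these lists was at 0 in every library of either sex, and their part in the beta difference was not tested. Epididymis and testis markers were higher in males in 8 of 11; with additive terms for sex and genotype and without the 14 male libraries with at least 100 CPM of these markers, 17 beta rows were lower in males and 0 higher.

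Few of the genes that act on or with the clusters passed between genotypes outside Q175, where few of all genes passed as well. Of 23 regulators of the clusters, which include CTCF, cohesin and its loaders, DNA methyltransferases and silencing factors, 6 were higher in Q175 than in Q20, where 4.54% of all genes were, and none lower. Among them Dnmt3a, a DNA methyltransferase, had a log2 difference of 0.37 (edgeR adjusted p = 0.00282), and Pds5a, a cohesin regulator, 0.42 (edgeR adjusted p = 0.00307). Against WT 2 of 23 were higher, where 3.34% of all genes were. They were Smchd1, a silencer of the clusters and of the inactive X chromosome, at 0.29 (edgeR adjusted p = 0.00361), and Pds5a at 0.43 (edgeR adjusted p = 0.0064). In Q20 against WT 1 was lower, the histone methyltransferase Ehmt1 at -0.28 (edgeR adjusted p = 0.0375), where 0.403% of all genes were lower. Between the sexes 7 of 23 were higher in males, among them Rest and Setdb1, near the 27.9% of all genes, and Pds5b was lower at -0.24. In Q80, Q92, Q111, Q140 and over the slope 0 of 23 passed. Of all genes 0% passed in Q80, Q111 and Q140, 0.00474% over the slope and 6.11% in Q92.

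The listed genes flanking the clusters did not follow the gamma members. Of 19 flanking genes 8 were lower and 1 higher in Q175 than in Q20, where 9.7% of all genes were lower and 4.54% higher. Zmat2 had a log2 difference of -0.37 (edgeR adjusted p = 0.000525), and Hdac3, a histone deacetylase, -0.32. Diaph1, an actin regulator, was the gene that was higher, at 0.27. Against WT 5 were lower and none higher, where 7.1% and 3.34% of all genes were. Among the lower ones was Ndufa2, a subunit of mitochondrial complex I, at -0.75. Between the sexes 7 were higher in males, among them Diaph1 at 0.38, and 2 lower, where 27.9% and 18.3% of all genes were. In Q92 against Q20 1 passed, Slc25a2 at 2.74 (edgeR adjusted p = 0.00814), where 5.91% of all genes were higher.

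Of 12 protocadherins outside the clusters, 5 were higher and 3 lower in males, where 27.9% and 18.3% of all genes were. Pcdh1 and Pcdh12 stand both in this list and among the flanking genes. Pcdh18 was lower at -0.998 (edgeR adjusted p = 2.31e-07). It was also the 1 that passed in Q175 against WT, higher at 0.97 (edgeR adjusted p = 0.0153), where 3.34% of all genes were higher. Of 21 partners and processing enzymes, 2 were higher and 2 lower in Q175, against Q20 and against WT alike in number. Of all genes 4.54% were higher and 9.7% lower against Q20, and 3.34% and 7.1% against WT. Adam10, the protease that sheds the outer part of gamma protocadherins, was higher at 0.35 against Q20 and 0.41 against WT, and Psenen, a gamma-secretase subunit, was lower at -0.58 (edgeR adjusted p = 8.42e-06) and -0.37. In males Wasf1, a subunit of the WAVE complex to which protocadherin tails bind, was lower at -0.97 (edgeR adjusted p = 8.13e-07), with 4 of the 21 lower and 2 higher in all.

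The genes whose level over the 55 libraries was most like that of Pcdhgc4 were not protocadherins. By Spearman correlation of log2 CPM the first 5 were the unnamed gene ENSMUSG00000102351 (rho = 0.912), 0610009E02Rik (0.872), Gm26790 (0.853), Gm6158 (0.849) and Smim11 (0.842). The rank correlation of the other 21 gamma rows with Pcdhgc4 ran from -0.66 for Pcdhga2 to -0.10. Over the 40 libraries of Q20 to Q140, without Q175 and WT, the first 5 were ENSMUSG00000102351 (0.833), Gm26790 (0.763), Sec22a (0.760), Plscr3 (0.757) and 0610009E02Rik (0.755), and the gamma rows ran from -0.62 to 0.19. These are descriptions over libraries that share genotype, depth and block, with no test.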

How the data were processed

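For 55 libraries the authors deposited estimated counts per gene, which are unscaled expected counts. They also deposited FPKM values, in which the authors had divided by gene length and depth. CASAVA 1.8.2 is named in the submitters' processing notes; which aligner, counter, build and annotation were used is not given in the sources used here. Of the nonzero counts 33.72% were not whole (tolerance 1e-06), and all were rounded. RNA was extracted with a Qiagen kit, checked on a Bioanalyzer and enriched before Illumina libraries were made, per the labels' protocols. Symbols and transcripts came from GENCODE mouse release 21, which held 42462 of 43432 identifiers.

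Counts were tested with edgeR 4.0.16 (R 4.3.3): TMM scaling, filterByExpr over 14 groups (21113 genes), robust quasi-likelihood fitting with a mean for each group, Benjamini-Hochberg adjustment over all genes and a threshold of 0.05. Genotype differences are means of the female and the male difference. Levels are CPM on TMM-scaled sizes. Each p-value sets a difference of group means against the spread among libraries of the same genotype and sex. It does not cover housing or the block of library numbers. The test was tried on simulated counts. Gamma and alpha members share constant exons and beta members are paralogs, so counts of single members depend on how shared reads were divided.

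The members and lists (regulators, flanking genes, outside protocadherins, partners, and markers of adipocyte, Schwann cell, neuron, mesothelium, progenitor, endothelium, mural cell, macrophage, epididymis and testis, and female tract) were chosen with earlier results of these data known. Named were the C types, the 10 highest members by FPKM, up to 10 members per comparison with the smallest p among those called, and up to 4 called genes per list. Endothelium markers were higher in males in 2 of 7, macrophage markers in 1 of 6, female tract markers in 5 of 9 with 2 lower, and adipocyte and progenitor markers lower in 2 of 9 and 2 of 8. Of all genes 27.9% were higher in males and 18.3% lower. Alternatives were RLE and upper-quartile scaling, other filters, DESeq2 1.42.0, limma 3.58.1 with voom and quality weights or on log2 FPKM plus 0.1 or 1, a lane or replicate term, subsets of libraries, removal of the length trend, a threshold of 0.01, and each library left out (with the dispersion trend of the full fit). No sequences or coordinates are printed.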

Additional observations from a re-analysis of the deposited data

Results flagged for a closer look

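In 168 groups of member and genotype, 22 had a library whose gap to its nearest neighbour, as a share of the group's range, exceeded Dixon's 95% critical value; chance flags about 1 in 20 groups. Sexes were pooled within a genotype, so members that differ between the sexes can be affected.

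Q111 female 4 was far above its group in 7 measures. It had 78.5 CPM in the beta sum (others 24.4 to 46.5), 7.92 CPM in the alpha sum, 21.8 CPM of Pcdhb9 (others 0.774 to 5.39), 5.95 CPM of Pcdhb7, 3.85 CPM of Pcdhgc5, 1.73 CPM of Pcdha2 and 0.900 CPM of the Pcdha11 row ENSMUSG00000007440. The same library had the highest sum of mural cell markers of all 55 libraries, 10000 CPM, and the highest sum of female tract markers among females, 294 CPM; their part in the values was not tested.

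Q92 male 1 had 14.8 CPM in the alpha sum, 9.02 CPM of Pcdha2 and 6.21 CPM of Pcdhgc5, beside 19000 CPM of epididymis and testis markers. Q80 male 1 had 1.10 CPM of Pcdha2, beside 20700 CPM of these markers. Q140 male 1 had 2.40 CPM of Pcdhb22 (others 5.19 to 6.88), beside 31500 CPM of these markers.

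WT male 1 stood apart in 4 measures, with 150.5 CPM of Pcdhgc3 (others 73.9 to 101.5), 2.87 CPM of Pcdhgc5, 263.6 CPM in the gamma sum (others 211.4 to 225.5) and an implied Pcdhgc4 length of 2482 nt (others 2286 to 2310 nt). It also had the steepest slope of expression over transcript length among the WT libraries, 0.130.

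Single members were high in Q92 female 3 (Pcdhb9, 11.5 CPM), Q140 female 3 (Pcdhb9, 9.83 CPM), Q140 female 2 (Pcdhga6, 11.2 CPM), Q175 female 1 (Pcdhga6, 11.9 CPM) and WT female 1 (Pcdhb15, 1.21 CPM). Pcdhgb2 was low in Q111 male 1 at 4.76 CPM (others 8.24 to 9.54).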

How the results depend on the processing

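Under the 16 alternative settings and with each library left out, none of the single called rows that were followed turned its direction. The counts of rows called have no direction to turn. Of their alternative values 45 moved and 730 stayed the same within the limit set. The 17 beta rows lower in males were 17 under DESeq2, voom with quality weights and log2(FPKM + 0.1) as well, 19 with the length trend removed and 9 where genes needed a mean of 1 CPM, which fewer beta rows reach. Among single named rows, 115 of the alternative values lost the call and 1775 kept it. Most of these values left out 1 library, often 1 outside the comparison, where a call could hardly be lost. They also hold Pcdhgc4 in Q175, which was chosen for its fall. In Q175 against Q20, Pcdhb16 lost its call without any 1 of 10 libraries and the Pcdha11 row ENSMUSG00000007440 without any 1 of 11.

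The count between the sexes (30 of 54) was 18 where genes needed a mean of 1 CPM (32 rows tested), and 29 to 34 with a library left out. The Q175 to WT count (12) was 30 with weighted voom, 25 with log2 FPKM plus 0.1 or 1, 19 with only the genotypes compared, 7 with lane as a factor, 5 in females alone, 5 with the length trend removed, 4 at a threshold of 0.01, and 5 to 19 with a library left out. The Q175 to Q20 count (6) was 24 with weighted voom, 18 and 22 with log2 FPKM plus 0.1 and 1, 16 with only the genotypes compared, 1 with the length trend removed, 1 at a threshold of 0.01, and 2 to 7 with a library left out, 2 without Q20 female 2 or Q20 female 4 and 3 without Q175 female 1 or Q175 female 3. The Q92 count (1) was 2 with DESeq2, 5 with weighted voom, 3 with log2 FPKM plus 0.1 or 1, 0 in each of the stricter filter, lane, genotypes compared, females alone, threshold of 0.01, and epididymis settings (the last with additive terms for sex and genotype as well), and 0 to 4 with a library left out. Counts of 0 became 1 with DESeq2 in Q111, Q140 and the slope, and 6 with weighted voom in Q20 against WT, and ranged from 0 to 0 with a library left out. The calls over all genes moved too, so the member counts are not read as a result about the members. Weighted voom passed 5439 genes higher and 5020 lower of 21113 in Q175 against Q20. Against WT it passed 3990 and 4426, and in Q92 5024 and 2157. On log2(FPKM + 1) 3178 and 581 genes passed against Q20 and 2041 and 338 against WT. With only the genotypes compared these were 2904 and 3483, and 2976 and 3026. The causes were not tested.

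On log2(FPKM + 0.1) the median of all genes shifted by 0.205 in Q175 against Q20, by 0.169 against WT and by 0.163 between the sexes. The calls over all genes between the sexes went from 5898 higher and 3872 lower to 9066 and 2176 and those of Q175 against Q20 from 958 and 2048 to 3238 and 577, and those against WT from 3.34% and 7.1% of genes to 2032 and 330 genes.

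Replicate numbers shared only a number: of 351 pairs with the same number 85 had a correlation above 0.1, with a mean of 0.03 against -0.01 for other pairs, and 17 of 55 libraries correlated best with their own number. With the replicate block the counts were 30 between the sexes, 4 in Q175 against Q20, 12 against WT and 1 in Q92.

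Depth limits the alpha members most, since 13 of 14 were at 0 in some library. Housing, and for WT and Q175 against the rest the block of library numbers, cannot be told apart from genotype. Single-member values rest on an unknown division of shared reads.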
